A study of Mus musculus with 6 samples.

Results

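Cytochrome c oxidase, or complex IV, is the enzyme that ends the respiratory chain, and several of its nuclear subunits exist as a ubiquitous isoform and an alternative isoform used in particular tissues. The members described here are 10 genes, taken as the rows of the expression tables that carry their symbols, out of 55076 rows. They are the ubiquitous isoforms Cox4i1, Cox6a1, Cox6b1, Cox7a2 and Cox8a, the alternative isoforms Cox4i2, Cox6a2, Cox6b2 and Cox7a1, and Cox7a2l, a relative of Cox7a2 that takes part in joining complex III to complex IV. RNA of the anterior prostate (AP), a lobe of the mouse prostate, was sequenced from male mice at 20 weeks of age, as 3 OEx and 3 Ctrl libraries that the labels list as separate samples and that are each called a mouse here. OEx mice carried Pbsn-Cre, a Cre driven by the prostate epithelial probasin promoter, and a Rosa26 N1ICD/+ allele from which Cre releases the active intracellular domain of Notch1. Ctrl mice carried the same Rosa26 N1ICD/+ allele without Cre in the study's methods, and the sample labels call them wild type. The comparison asked whether the isoforms of this enzyme differ together between OEx and Ctrl AP.

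Complex IV takes electrons from cytochrome c, passes them to oxygen and pumps protons across the inner mitochondrial membrane. Its catalytic core is encoded by mitochondrial DNA, and the nuclear subunits around it shape assembly, stability and regulation. Cox4i2 is best known from lung and from cells that sense oxygen, Cox6a2 and Cox7a1 from heart and skeletal muscle, and Cox6b2 from testis, whereas the ubiquitous isoforms are found in most tissues.

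Depth recovered from the deposited values ran from 14762182 to 18650962 reads per mouse, and 3 reads, the limit that a count of 0 allows, correspond to a CPM between 0.161 and 0.203, for counting error only. FPKM here means fragments per kilobase of exon under the deposited scaling between mice, which differs from scaling to library totals. For Notch1 the OEx mice, in order of replicate, held 41.9, 47.6 and 78.9 FPKM. The Ctrl mice held 5.18, 5.55 and 3.34 FPKM in the same order. Replicate 3 stood apart in both groups. Replicates 1 and 2 of a group differed by 2.93 to 3.67 times the counting noise (chi-square per degree of freedom over genes), and either of them differed from replicate 3 by 50.4 to 86.7 times. Ctrl replicate 3 also held 16130 FPKM over 8 seminal vesicle genes, against at most 4.36 in any other mouse. Over the 12553 genes that averaged 1 FPKM or more, limma on log2(FPKM + 1) called 1941 genes lower and 1604 higher in OEx mice, at a Benjamini-Hochberg FDR under 0.05 and more than a 2-fold change. With mice rescaled to library totals the split was 530 lower and 3847 higher, and the median over all genes of the log2 fold change moved from -0.07 to 0.56. Replicates 1 and 2 differed by more than counting noise and were counted separately, but repeat libraries of the same animal could differ so too. Whether they are separate animals cannot be told apart here, and if they are not, each group holds 2 animals where n = 3 is given. The p-values measure the spread between these libraries only.

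RefSeq promoter sequences (GRCm38.p6) were on hand for 7 of the 10 members, all except Cox4i1, Cox4i2 and Cox6a2. The 170 bases before the start are shown for Cox6a1, and for Cox6b1 with Cox6b2 and Cox7a2 with Cox7a1, since in these pairs a ubiquitous and an alternative isoform can be read side by side. Capitals mark the letters of a searched motif on either strand. Starts are those of RefSeq, which for Cox6a1, Cox6b1, Cox7a1 and Cox7a2 lie inside the gene as GENCODE annotates it on GRCm38. Their windows thus reach into the annotated gene, where the marked CTTCCGG of Cox6a1 and of Cox6b1 lies. The window of Cox7a2l, not shown, lies wholly inside its annotated gene. The windows lie at chr5:115348959-115349128 (- strand) for Cox6a1, chr7:30626115-30626284 (- strand) for Cox6b1, chr7:4753095-4753264 (- strand) for Cox6b2, chr9:79759854-79760023 (- strand) for Cox7a2 and chr7:30184001-30184170 (+ strand) for Cox7a1, and each is written 5′ to 3′ towards the gene.
Cox6a1: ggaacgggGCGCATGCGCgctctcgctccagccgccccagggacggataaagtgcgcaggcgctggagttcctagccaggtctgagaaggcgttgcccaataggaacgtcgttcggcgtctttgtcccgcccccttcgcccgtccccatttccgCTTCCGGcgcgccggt
Cox6b1: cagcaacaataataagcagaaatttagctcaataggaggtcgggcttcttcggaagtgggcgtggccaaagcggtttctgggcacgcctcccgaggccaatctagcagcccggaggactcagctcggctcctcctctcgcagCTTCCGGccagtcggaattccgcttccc
Cox6b2: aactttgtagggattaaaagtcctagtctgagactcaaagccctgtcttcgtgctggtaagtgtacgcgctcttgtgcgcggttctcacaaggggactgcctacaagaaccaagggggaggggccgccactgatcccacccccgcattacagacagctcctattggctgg
Cox7a2: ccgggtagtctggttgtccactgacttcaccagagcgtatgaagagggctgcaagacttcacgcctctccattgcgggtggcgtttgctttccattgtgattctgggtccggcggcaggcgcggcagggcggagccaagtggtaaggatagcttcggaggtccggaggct
Cox7a1: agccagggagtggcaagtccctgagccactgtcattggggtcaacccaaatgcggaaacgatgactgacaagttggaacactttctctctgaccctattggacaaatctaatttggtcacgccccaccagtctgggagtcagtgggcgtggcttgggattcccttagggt
Motifs were searched on both strands from 250 bases before to 50 bases after the start. CCGGAAG, the motif of the GABP factors that are known regulators of respiratory genes, occurred in Cox6a1, Cox6b1 and Cox8a and in 8.86% of all 32851 promoters. In Cox8a its 2 matches lay at the start itself and behind it, so that none shows in the bases before the start. CATGCGC, a part of the motif of NRF1, another regulator of respiratory genes, occurred in Cox6a1 on both strands in overlapping matches and in 3.91% of promoters. No match of either motif was found in Cox6b2, Cox7a1, Cox7a2 or Cox7a2l. GTGGGAA, the core bound by the Notch partner RBPJ, and AAGATGG, the motif of YY1, were found in none of the 7 windows, and in 6.38% and 6.34% of all promoters. These matches describe letters in a window and say nothing of binding.

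All 5 ubiquitous isoforms and Cox7a2l were lower in OEx mice, and none of the alternative isoforms was called in either direction. Of the 10 members, 9 passed the filter on low values, 6 were called lower and 0 higher, while 15.5% of all tested genes were called lower and 12.8% higher. With the FDR alone 7 members were lower and 0 higher, against 36.5% and 30.9% of all genes. An unadjusted limma p under 0.05 gave 7 lower and 0 higher, against 38.1% and 32.5% of all genes, and limma-voom on the recovered reads called 7 lower and 0 higher, against 19.2% and 18%. In 7 of the 9 tested members the groups did not overlap, with every OEx mouse below every Ctrl mouse, against 38.9% of all genes, and in 0 the other way, against 33.6%. The plot of the 10 members by mouse shows the ubiquitous isoforms far above the alternative ones in every mouse.

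**Figure D1:**
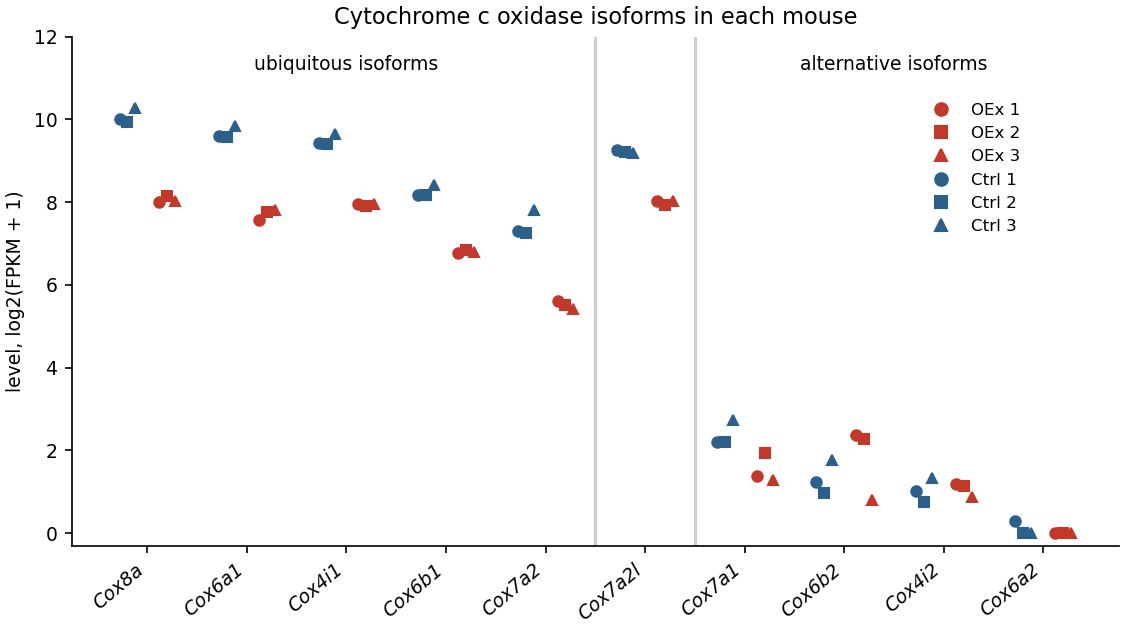
Level of each member on a log2(FPKM + 1) axis in 3 Ctrl mice (blue) and 3 OEx mice (red), 1 point per mouse, with replicates 1, 2 and 3 as circles, squares and triangles. The 5 ubiquitous isoforms and Cox7a2l have no overlap between groups, Cox6b2 and Cox4i2 overlap, and Cox6a2 is at or near 0 in all mice.

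Cox8a, a small subunit of the inner membrane, was the most abundant member in Ctrl mice and had the largest fold change of the members. Those of Cox6a1 and Cox7a2 lay within its standard error, so these members cannot be ranked. Among replicates 1 and 2 alone Cox6a1 had the largest change, and in replicate 3 alone Cox7a2 did. Cox8a (chr19:7215153-7217616, - strand, GENCODE annotation of GRCm38 here and below) stood at 254, 284 and 261 FPKM in OEx mice and at 1027, 977 and 1248 FPKM in Ctrl mice. The OEx values lay within a narrow band and every one was below the lowest Ctrl value. Its log2 fold change was -2.01 (SE 0.12, limma FDR 4.22e-05).

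Cox6a1 (chr5:115345642-115348981, - strand), which sits where the monomers of the enzyme meet, stood at 190, 217 and 222 FPKM in OEx mice and 770, 765 and 913 FPKM in Ctrl mice. OEx replicate 1 was the lowest of all mice and Ctrl replicate 3 the highest, with no overlap. The log2 fold change was -1.96 (SE 0.12, limma FDR 3.97e-05). Of the 50-base stretches of Cox6a1, 9.16% also occur in another annotated gene, AC148174.2, so its reads may be split there.

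Cox7a2 (chr9:79755361-79759878, - strand), the ubiquitous partner of Cox7a1, was the least abundant of the ubiquitous isoforms. It stood at 48.0, 44.6 and 42.0 FPKM in OEx mice and at 156, 152 and 224 FPKM in Ctrl mice. Ctrl replicate 3 was well above the other Ctrl mice, and the groups did not overlap. OEx mice differed from Ctrl mice by a log2 fold change of -1.94 (SE 0.16, limma FDR 1.09e-04).

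Cox4i1 (chr8:120668222-120674207, + strand), the largest of the nuclear subunits and a site of regulation by nucleotides, stood at 248, 239 and 245 FPKM in OEx mice and 688, 678 and 797 FPKM in Ctrl mice. OEx mice differed from each other by little, with a mean of 244 ± 4.58 FPKM (SD, n = 3), against 721 ± 66.2 FPKM (SD, n = 3) in Ctrl mice. The log2 fold change was -1.55 (SE 0.10, limma FDR 4.60e-05). Exons of Emc8 overlap 9.94% of its exon bases. The tested genes whose 6 deviations from the mean level lay nearest to those of Cox4i1 on the log2(FPKM + 1) scale were Mpnd (distance 0.06), Copz1 (0.09) and Ddit3 (0.10). Copz1, a coatomer subunit of vesicle transport, stood at 21.6, 21.1 and 22.3 FPKM in OEx mice and 62.2, 61.0 and 68.0 FPKM in Ctrl mice.

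Cox6b1 (chr7:30616861-30626151, - strand), on the side of the enzyme that faces cytochrome c, stood at 108, 114 and 110 FPKM in OEx mice and 286, 286 and 343 FPKM in Ctrl mice. Ctrl replicates 1 and 2 were nearly alike and replicate 3 was higher, with all OEx mice below them. The difference on the log2 scale was -1.45 (SE 0.10, limma FDR 6.06e-05).

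Cox7a2l (chr17:83501918-83517330, - strand) had the smallest fold change of the called members. It stood at 260, 244 and 261 FPKM in OEx mice and at 615, 589 and 587 FPKM in Ctrl mice. Unlike the ubiquitous isoforms, its level in Ctrl replicate 3 was the lowest of the Ctrl mice. The log2 fold change was -1.22 (SE 0.08, limma FDR 5.59e-05), and 13.8% of its 50-base stretches also occur in Gm6969.

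Without Ctrl replicate 3, the 6 called members kept log2 fold changes from -1.24 for Cox7a2l to -1.91 for Cox8a. All 6 were called by limma, against 1956 of all 12553 genes called lower in that fit. Among replicates 1 and 2 alone the 6 ran from -1.25 to -1.92 and were all called, against 2025 of the 12553 genes called lower. That fit measures only the spread between close libraries, which may be of the same animal. In replicate 3 alone the 6 ran from -1.17 to -2.39. The 2-fold criterion depended on how mice were scaled to each other. With library totals, 3 of the 6 were called, Cox8a at -1.23, Cox6a1 at -1.17 and Cox7a2 at -1.16, while Cox4i1 stood at -0.77, Cox6b1 at -0.67 and Cox7a2l at -0.44. Cox7a2l also lost its call with upper-quartile scaling, at -0.93, and with totals that leave out the 20 most abundant genes, at -0.87, and so under all 3 other scalings tried, while the other 5 stayed called under the last 2. Set against the median gene, the 6 lay between -1.15 and -1.94 under the deposited scaling and between -1.01 and -1.80 with library totals. The plot of fold changes under 4 scalings shows this shift, which is the same for all genes of high level.

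**Figure D2:**
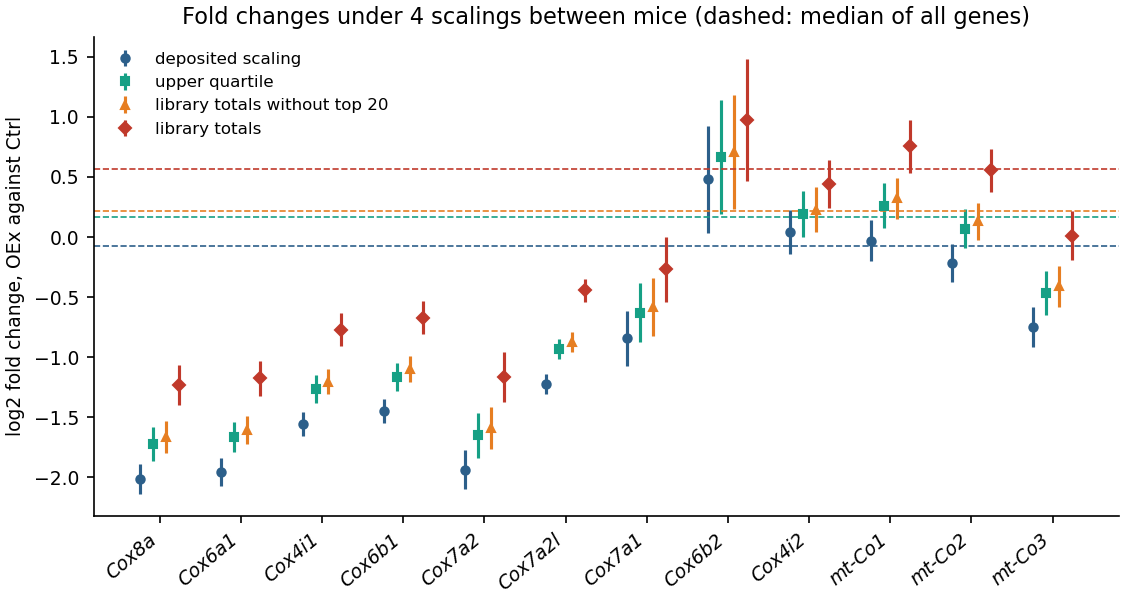
Log2 fold change of OEx against Ctrl (points, with standard errors) for the 9 tested members and 3 mitochondrially encoded subunits under 4 scalings between mice, with the median of all 12553 genes under each scaling as a dashed line. The 5 ubiquitous isoforms and Cox7a2l stay below the median line of their scaling, while mt-Co1 and mt-Co2 lie near it.

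In bulk tissue, fewer cells of a type and less RNA per cell cannot be told apart. Levels of markers also differed between the groups under the deposited scaling, the only one used for markers here and below. Library totals would raise OEx values against Ctrl values by 0.784 on the log2 scale on average. Marker gaps near that size, such as that of the luminal sums, thus depend on the scaling. The 5 luminal epithelial markers summed to 1186 to 1526 FPKM in OEx mice and 2178 to 2451 in Ctrl mice, with Krt18 and Cd24a called lower and 0 of the 5 called higher, and they differed in direction. Cdh1 stood at 127, 127 and 131 FPKM in OEx mice against 92.6, 93.6 and 64.2 in Ctrl mice (0.63 on the log2 scale, limma FDR 0.00997), and Epcam at 313, 310 and 491 FPKM against 297, 295 and 214 (0.45, limma FDR 0.116), both without overlap. The 4 basal epithelial markers summed to 6.79 to 15.9 FPKM in OEx mice and 212 to 249 in Ctrl mice, with 4 of 4 called lower. The 5 prostate markers, Pbsn among them, summed to 2350 to 5473 FPKM in OEx mice and 23420 to 23800 in Ctrl mice, with 3 of the 5 called lower and 1 higher. The part of these cell types in the levels of the ubiquitous isoforms was not tested.

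The order of the members changed between the groups near its top. FPKM compares genes per length of their annotated exons. In every Ctrl mouse the order was Cox8a, Cox6a1, Cox4i1, Cox7a2l, Cox6b1 and Cox7a2. In OEx mice Cox7a2l moved to the first or the second place and Cox6a1 to the fourth. Cox8a at 254 to 284 FPKM, Cox7a2l at 244 to 261 and Cox4i1 at 239 to 248 overlapped in OEx mice, so their order there is within the spread between mice. In Ctrl mice Cox6a1 at 765 to 913 FPKM overlapped Cox4i1 at 678 to 797, although Cox6a1 was the higher in each mouse. Cox6b1 and Cox7a2 held the fifth and the sixth place in all mice without overlap.

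The ubiquitous isoforms did not all differ by the same amount. Ratios to Cox4i1 within a mouse, which no scaling between mice can change, were chosen after the levels were seen and are given without a test. The ratio of Cox8a to Cox4i1 was 1.02, 1.19 and 1.06 in OEx mice and 1.49, 1.44 and 1.57 in Ctrl mice. That of Cox6a1 was 0.764, 0.906 and 0.905 in OEx mice and 1.12, 1.13 and 1.15 in Ctrl mice. That of Cox7a2 was 0.193, 0.187 and 0.171 in OEx mice and 0.227, 0.224 and 0.281 in Ctrl mice. These 3 ratios were lower in every OEx mouse than in any Ctrl mouse. The ratio of Cox6b1 was 0.435 to 0.477 in OEx mice and 0.417 to 0.431 in Ctrl mice, a narrow gap. Cox7a2l went the other way, at 1.05, 1.02 and 1.06 times Cox4i1 in OEx mice and 0.894, 0.869 and 0.736 times in Ctrl mice. The ratio of Cox7a2 to Cox7a2l, which are alike in sequence, was 0.184, 0.183 and 0.161 in OEx mice and 0.254, 0.258 and 0.381 in Ctrl mice.

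**Figure D3:**
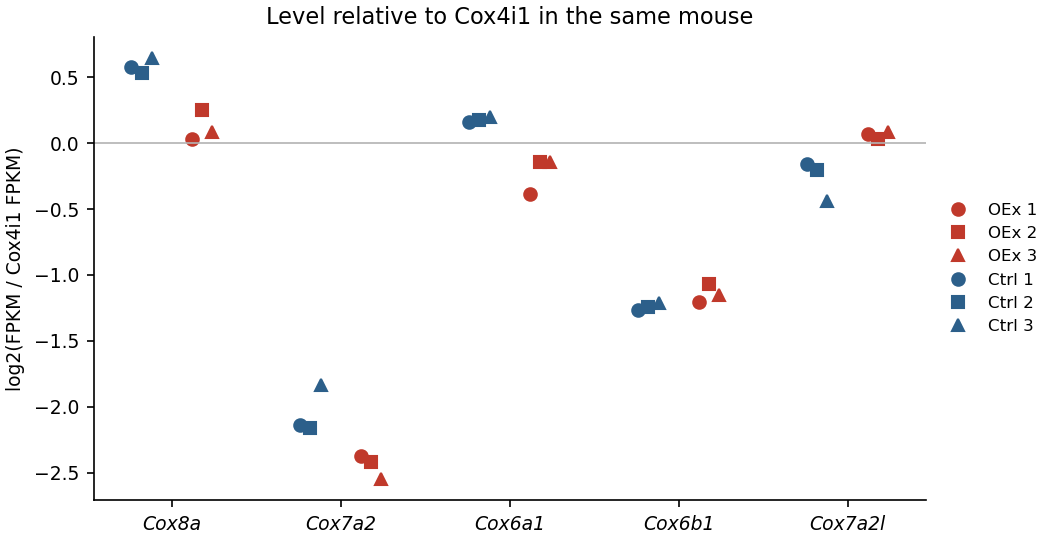
Level of 5 members divided by that of Cox4i1 in the same mouse, on a log2 axis, for 3 Ctrl mice (blue) and 3 OEx mice (red), 1 point per mouse and no pseudocount. Cox8a, Cox7a2 and Cox6a1 sit lower in OEx mice, Cox7a2l sits higher, and Cox6b1 is separated by the smallest gap.

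The alternative isoforms were rare, and their levels rested on few reads. Cox4i2 (chr2:152754173-152765037, + strand) stood at 1.27, 1.22 and 0.844 FPKM in OEx mice and 1.01, 0.686 and 1.503 FPKM in Ctrl mice, from 7 to 22 reads per mouse. Ctrl replicates 2 and 3 were the lowest and the highest of all mice, so the groups overlapped fully. The log2 fold change was 0.04 (SE 0.18, limma FDR 0.846), and limma-voom gave 0.08 (SE 0.41, FDR 0.881). Changes within a few standard errors of these were not detectable at this depth. The genes whose pattern over the 6 mice lay nearest to Cox4i2 were Nck1 (distance 0.12), Stard5 (0.13) and 1600020E01Rik (0.14).

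Cox6b2 (chr7:4751792-4753094, - strand), the isoform known from testis, stood at 4.16, 3.83 and 0.750 FPKM in OEx mice and 1.37, 0.976 and 2.44 FPKM in Ctrl mice, from 14 to 97 reads per mouse. OEx replicates 1 and 2 were the highest of all mice and OEx replicate 3 the lowest. The log2 fold change was 0.48 (SE 0.44, limma FDR 0.369). Among replicates 1 and 2 alone, a choice made after seeing the data, it was 1.21 (SE 0.12, limma FDR 4.82e-04) and called higher, whereas replicate 3 alone gave -0.97. Of 6 male germ cell markers, 4 were at 0 in all mice (Prm2, Tnp1, Tnp2 and Odf1), and the list reached at most 1 read in any mouse.

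Cox7a1 (chr7:30184144-30186078, + strand), the isoform of heart and skeletal muscle, stood at 1.59, 2.86 and 1.45 FPKM in OEx mice and 3.59, 3.61 and 5.66 FPKM in Ctrl mice, from 14 to 46 reads per mouse. Every OEx mouse was below every Ctrl mouse, with OEx replicate 2 nearest to them. Its log2 fold change of -0.84 (SE 0.23, limma FDR 0.0157) passed the FDR and missed the 2-fold criterion. Without OEx replicate 2 it was -1.05 and called lower. It was not called without Ctrl replicate 3, at -0.66 (limma FDR 0.0399), and lost the FDR without OEx replicate 1, at -0.76 (FDR 0.0530). Limma-voom on the reads, without the pseudocount of 1 FPKM that shrinks changes of low genes, gave -1.14 (SE 0.38, FDR 0.0317) and called it lower. Under the other scalings it lost the FDR, at -0.27 with library totals (limma FDR 0.404), -0.58 with totals that leave out the 20 most abundant genes (FDR 0.0726) and -0.63 with upper-quartile scaling (FDR 0.0607). Among replicates 1 and 2 alone it was -0.54 (SE 0.20, limma FDR 0.0534), and replicate 3 alone gave -1.44. The genes nearest to it in pattern were Gm10059 (distance 0.18), Creld1 (0.28) and Gm13436 (0.28).

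Smooth muscle markers were lower in the same mice as Cox7a1, and striated muscle markers were mixed. The 6 smooth muscle markers summed to 505, 502 and 419 FPKM in OEx mice and 1277, 1252 and 2671 FPKM in Ctrl mice, with 6 of 6 called lower. The 9 striated muscle markers summed to 26.7 to 34.2 FPKM in OEx mice and 188 to 434 in Ctrl mice, with 2 of 3 tested (Acta1 and Ckm) called lower and Myh1 and Myh4 at 0 in all mice. Acta1 made up 24.3 to 31.2 FPKM of these sums in OEx mice and 184 to 426 in Ctrl mice. Mylpf was not called (limma FDR 0.0915), and Mb, at 0.352 to 0.470 FPKM in OEx mice, was above Ctrl replicates 1 and 2 at 0.107 and 0.155 and below Ctrl replicate 3 at 0.838. Both sums were highest in Ctrl replicate 3, as was Cox7a1. The 6 adipocyte markers summed to 0.443 to 0.692 FPKM in OEx mice and 1.72 to 5.36 in Ctrl mice, with 1 of 1 tested called lower. The 7 pericyte markers, a cell type that holds Cox4i2 in other tissues, summed to 26.1 to 33.0 FPKM in OEx mice and 8.02 to 14.6 in Ctrl mice. Notch3 made up 16.2 to 28.3 and 1.02 to 1.28 FPKM of these sums. It alone was called higher of the 5 tested, and 0 were called lower. The others tested differed in direction, with Rgs5 at 0.995 on the log2 scale, Kcnj8 at -0.77, Pdgfrb at -0.30 and Cspg4 at -0.40. The 5 endothelial markers summed to 6.52 to 7.66 FPKM in OEx mice and 17.5 to 23.1 in Ctrl mice, with 1 of 5 called lower. The part of these cells in Cox7a1, Cox4i2 and Cox6b2 was not tested.

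Cox6a2 (chr7:128205435-128206387, - strand), the muscle partner of Cox6a1, was listed at 0 in all OEx mice and in Ctrl replicates 2 and 3. Ctrl replicate 1 held 2 reads, or 0.235 FPKM, and exons of Itgad overlap 10.3% of its exon bases. Both groups were at or under 3 reads per mouse, so no fold change is given.

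Within a mouse, the alternative isoform held a small share of its pair in both groups. Cox4i2 made up 0.510%, 0.508% and 0.343% of the summed FPKM of Cox4i2 and Cox4i1 in OEx mice and 0.147%, 0.101% and 0.188% in Ctrl mice. The shares did not overlap, at 0.454% ± 0.0962 (SD, n = 3) against 0.146% ± 0.0436 (SD, n = 3). The log2 ratio of Cox4i2 to Cox4i1, with 1 FPKM added to each, was higher in OEx mice by 1.60 (SE 0.14, exact two-sided permutation p = 0.1, the smallest that 3 against 3 mice can give). Cox4i2 itself overlapped between the groups (0.04 on the log2 scale) while Cox4i1 was lower in OEx mice (-1.55), so the difference is almost wholly that of Cox4i1. A gene of even level would show a like difference against Cox4i1. The added 1 FPKM is near the level of Cox4i2 itself and narrows the spread of the ratio. The shares rest on 7 to 22 reads of Cox4i2 per mouse, and limma-voom gave its change an SE of 0.41.

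Cox7a1 made up 3.22%, 6.03% and 3.34% of its pair with Cox7a2 in OEx mice and 2.25%, 2.32% and 2.47% in Ctrl mice. OEx replicate 2 had the highest share and the groups did not overlap. The log2 ratio was higher in OEx mice by 1.10 (SE 0.21, exact permutation p = 0.1), while the levels of both genes were lower there. The 1 FPKM added to each gene shrinks the change of Cox7a1 and hardly that of Cox7a2, which enlarges this difference. Limma-voom, without it, gave log2 fold changes of -1.14 for Cox7a1 and -1.96 for Cox7a2. The shares in OEx replicates 1 and 3, nearest to the Ctrl mice, rest on 17 and 14 reads of Cox7a1. Cox6b2 made up 3.72%, 3.25% and 0.675% of its pair with Cox6b1 in OEx mice and 0.476%, 0.340% and 0.705% in Ctrl mice. The share in OEx replicate 3 lay within the Ctrl range, so the shares overlapped. With 1 FPKM added to each gene the log2 ratios of this pair did not overlap, and their difference was 1.93 (SE 0.53, exact permutation p = 0.1), so that for OEx replicate 3 the separation rests on the pseudocount. For Cox6a2 and Cox6a1 the same ratio is set by the pseudocount, since Cox6a2 had 0 to 2 reads, and it is not read here.

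**Figure D4:**
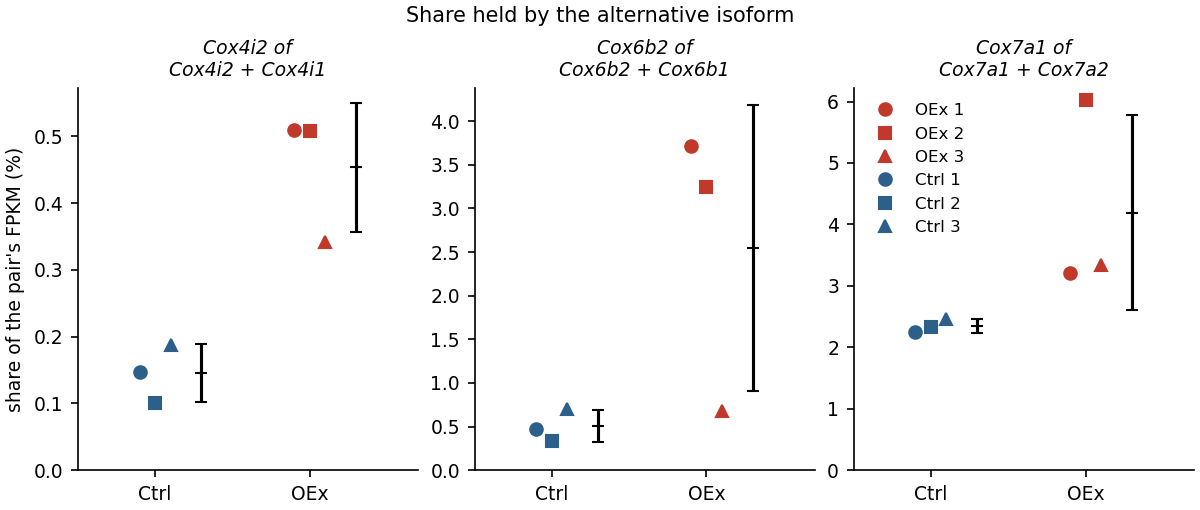
Share of the summed FPKM of an isoform pair held by the alternative isoform, in percent, in 3 Ctrl mice (blue) and 3 OEx mice (red), with the mean and SD of each group as black bars. The shares of Cox4i2 and Cox7a1 do not overlap between groups, and for Cox6b2 OEx replicate 3, at 0.675%, lies among the Ctrl mice.

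The other nuclear subunits, which have no alternative isoform among the members, were lower as well. All 6 of them (Cox5a, Cox5b, Cox6c, Cox7b, Cox7c and Ndufa4) were called lower by limma, with log2 fold changes from -1.07 for Cox5a to -1.96 for Ndufa4 and a median of -1.33, against -0.07 over all genes, of which 15.5% were called lower. With library totals 1 of them, Ndufa4, stayed called at -1.18, and Cox6c lost the FDR as well (-0.59, limma FDR 0.0616). With totals that leave out the 20 most abundant genes 3 stayed called, and with upper-quartile scaling 4. Ndufa4, now counted as a subunit of complex IV, stood at 49.8, 51.3 and 49.5 FPKM in OEx mice and 179, 175 and 249 FPKM in Ctrl mice. Of the other alternative isoforms, Cox8c and Cox7b2 had 0 reads in all mice and Cox8b 0 to 4 reads. Ndufa4l2 was the only one of them tested, at -0.50 (SE 0.31, limma FDR 0.190).

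None of the 3 core subunits encoded by mitochondrial DNA was called. mt-Co1 stood at 3377, 3131 and 4024 FPKM in OEx mice and 3254, 3250 and 4277 FPKM in Ctrl mice, a full overlap with a log2 fold change of -0.03 (SE 0.17, limma FDR 0.887). mt-Co2 gave -0.21 (SE 0.16, FDR 0.268) and mt-Co3 -0.75 (SE 0.17, FDR 0.00656). Of the 50-base stretches, 100% in mt-Co2, 99.9% in mt-Co3 and 51.1% in mt-Co1 also occur in other annotated genes, among them the pseudogenes Gm28661, Gm28437 and Gm29216, so that these levels are uncertain. With library totals the log2 fold changes were 0.75 for mt-Co1 (limma FDR 0.0201), 0.55 for mt-Co2 (FDR 0.0300) and 0.01 for mt-Co3 (FDR 0.970), all short of a 2-fold change.

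Assembly factors, which insert copper and haem or hold subunits together while the enzyme is built, were mixed. Of 23, 20 were tested, 9 were called lower and 0 higher, against 15.5% and 12.8% of all genes, with a median log2 fold change of -0.69. With library totals 1 was called lower, Pet100 at -1.13, and 6 with each of the other scalings. Surf1, Coa5 and Smim20 lost the call under each of these scalings, with Surf1 at -0.47 with library totals and -0.95 with upper-quartile scaling. Surf1, needed for haem insertion and mutated in Leigh syndrome, stood at 25.0, 24.6 and 27.2 FPKM in OEx mice and 62.6, 62.0 and 60.1 FPKM in Ctrl mice (log2 fold change -1.23, SE 0.08, limma FDR 4.50e-05). The others called lower were Pet100 at -1.84, Coa3 at -1.49, Cox14 at -1.43, Cmc2 at -1.40, Coa6 at -1.38, Cox19 at -1.32, Coa5 at -1.12 and Smim20 at -1.09. Exons of Pcp2 overlap 52.6% of the exon bases of Pet100, so its level is uncertain. The same holds for Cox20 (91.1%, Hnrnpu), Cox16 (56.8%, Gm20498) and Cox11 (48.4%, Tom1l1), which were tested and not called. The copper chaperone Cox17 missed the filter and was higher in OEx mice, at 1.55, 1.55 and 1.45 FPKM against 0.166, 0.308 and 0.433 FPKM. Sco2 and Pet117 were listed at 0 in all mice, but exons of Ncaph2 and Tymp overlap 91.8% of the exon bases of Sco2 and those of Kat14 100% of Pet117, so counting may leave them without reads whatever their level.

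**Figure D5:**
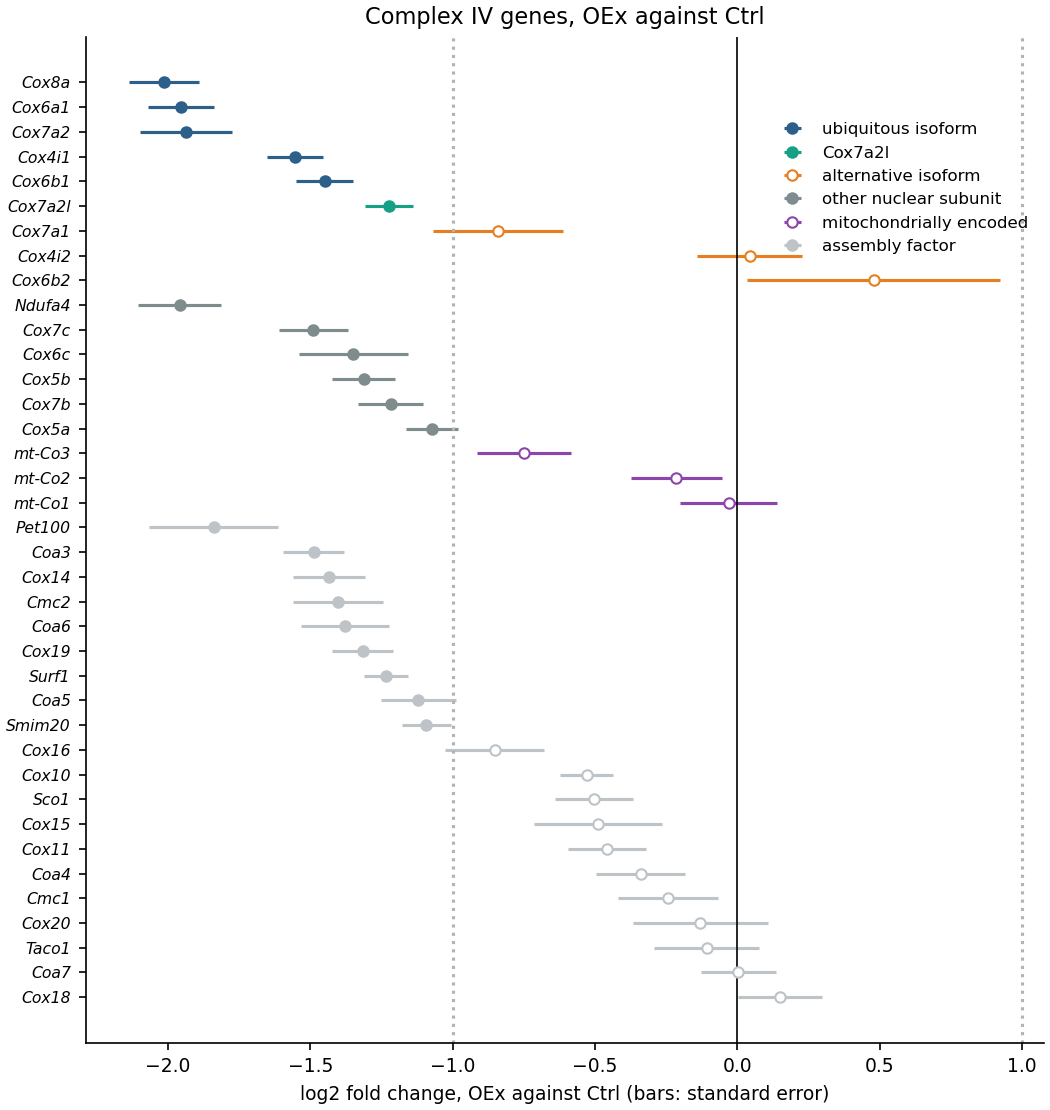
Log2 fold change of OEx against Ctrl with its standard error for the tested complex IV genes, grouped by colour, from limma on log2(FPKM + 1). Filled points passed both an FDR under 0.05 and a 2-fold change (dotted lines), which all ubiquitous isoforms, Cox7a2l and the other nuclear subunits did and no alternative or mitochondrially encoded subunit did.

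Factors described at the Cox4i2 promoter or in the switch between Cox4i1 and Cox4i2 differed in direction. Chchd2, which binds that promoter, stood at 80.1, 74.1 and 77.0 FPKM in OEx mice and 224, 219 and 306 FPKM in Ctrl mice (log2 fold change -1.66, SE 0.14, limma FDR 1.15e-04). Hif1a, the oxygen-responsive factor, stood at 11.8, 11.5 and 9.50 FPKM in OEx mice and 3.24, 3.31 and 4.79 FPKM in Ctrl mice (1.33, SE 0.15, limma FDR 3.62e-04). Cxxc5, described as a repressor there, was at -0.99 (limma FDR 5.61e-04), the protease Lonp1 at -0.43 (FDR 0.00357) and Rbpj at 0.31 (FDR 0.0314), all short of a 2-fold change. With library totals Chchd2 stood at -0.89 and lost its call, and Cxxc5 at -0.23 lost the FDR (limma FDR 0.0551). Under that scaling Lonp1 turned to 0.32, Rbpj stood at 0.89, and Hif1a stayed called higher.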

How the data were processed

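The authors deposited 1 table of FPKM values per mouse, listed by gene symbol and made with an in-house pipeline. The submitters' processing notes name CASAVA, HISAT2 2.0.5, featureCounts 1.5.0-p3 and StringTie 1.3.3b, and the genome build is not given in the sources used here. The deposited FPKM values already carry a scaling between mice, which is not that of library totals. Exon lengths of the GENCODE annotation of GRCm38 were matched to 53636 rows, and with them 96.9% to 97.5% of the values under 1000 reads in a mouse came out as whole reads within 0.05 reads. These reads were used for depth and alternatives. Rows with no gene name (544, holding 0.632% to 1.21% of the summed FPKM) were left out.

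The groups were compared on log2(FPKM + 1) by limma (version 3.58.1, R version 4.3.3), with an intensity trend. Genes averaging 1 FPKM or more entered the fit, and a call needed an FDR (Benjamini-Hochberg) under 0.05 together with more than a 2-fold change. A pseudocount of 1 understates changes of low genes. Ratios within a mouse were tested with exact two-sided permutation tests. Steps were tested on simulated data. Tables were made with pandas 2.3.3 and numpy 2.4.6 under Python 3.11.15, permutation tests with scipy 1.17.1 and plots with matplotlib 3.10.9.

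The members and lists were chosen with earlier results of these data known. Genes named are the members, the genes of the complex IV lists, and for Cox4i1, Cox4i2 and Cox7a1 the 3 tested genes with the smallest Euclidean distance in pattern. Alternatives were other filters, pseudocounts, scalings, tests, thresholds, a replicate block, and each mouse left out; the fit on replicates 1 and 2 alone was chosen after seeing the data.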

Additional observations from a re-analysis of the deposited data

How the results depend on the processing

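With library totals, calls lower fell to 3 members (3 of the ubiquitous isoforms), 1 other subunit, 1 assembly factor and 0 regulators of Cox4i2, and without the 20 most abundant genes in the totals, to 3 other subunits. Over all genes, calls were 530 lower and 3847 higher with library totals, 1116 and 2498 without the 20 most abundant genes, and 1233 and 2311 with upper-quartile scaling; FDR alone gave 4584 and 3875. By their construction, these scalings shift all but low genes alike. With a pseudocount of 0.1, with limma-voom and with FDR alone, 1 alternative isoform, Cox7a1, was called lower, and leaving out each mouse gave 0 to 1. The regulators called lower were 2 with a pseudocount of 0.1, with limma-voom and with replicates 1 and 2 alone, 3 with FDR alone, and 1 to 2 with each mouse left out; those called higher were 2 with FDR alone. With replicates 1 and 2 alone, 1 member, the alternative isoform Cox6b2, was called higher. The planned ratio of Cox6a2 to Cox6a1 differed by 1.85, by 1.38 with a pseudocount of 0.1 and by 0.85 on reads per kilobase, on 0 to 2 reads of Cox6a2.

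Log2 fold changes that turned in sign were those of genes not called. With library totals they were mt-Co1 at 0.75, mt-Co2 at 0.55, mt-Co3 at 0.0093, Sco1 at 0.093, Cox10 at 0.10, Cox11 at 0.093, Cox15 at 0.17, Cox20 at 0.30, Coa4 at 0.33, Taco1 at 0.56, Cmc1 at 0.48 and Lonp1 at 0.32. Without the 20 most abundant genes in the totals they were mt-Co1 at 0.32, mt-Co2 at 0.13, Cox20 at 0.061, Taco1 at 0.19 and Cmc1 at 0.081, and with upper-quartile scaling mt-Co1 at 0.26, mt-Co2 at 0.071, Cox20 at 0.030, Taco1 at 0.14 and Cmc1 at 0.025. With a mouse left out, Cox4i2 gave -0.012 (without OEx replicate 1) and -0.094 (without Ctrl replicate 2) within a range up to 0.19, and mt-Co1 0.049 (without OEx replicate 2) and 0.10 (without Ctrl replicate 3) within a range down to -0.13. Cox20 gave 0.11 without OEx replicate 1 (lowest -0.34), Taco1 0.044 without Ctrl replicate 1 (lowest -0.30), and Coa7 -0.0035 without OEx replicate 3 and -0.11 without Ctrl replicate 1. The cause was not tested where sign followed a single mouse.

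The labels number mice 1 to 3 in both groups without saying that numbers pair them, and deviations of same-numbered mice correlated at -0.24 on average. With the number as a replicate block, 6 members were called lower and 0 higher, and 1906 genes lower and 1565 higher overall. Depth limits the alternative isoforms, which had at most 97 reads in a mouse.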
